A study of Homo sapiens with 10 samples.

Results

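RNA-Seq of EA.hy926 cells was used to describe matrix metalloproteinases (MMPs) and tissue inhibitors of metalloproteinases (TIMPs) in clones that lack the promoter of 1 of 2 long noncoding RNAs, *VEGFA-LNC* or *VEGFC-LNC*. The 9 genes are *MMP1*, *MMP2*, *MMP7*, *MMP10*, *MMP14*, *MMP19*, *TIMP1*, *TIMP2* and *TIMP3*, taken by name from the 27945 gene symbols of the expression table, each by its RefSeq transcript with the highest mean level. EA.hy926 is an established line made by fusing human umbilical vein endothelial cells with A549 lung carcinoma cells. The 3 VEGFA-LNC deletion clones and the 3 VEGFC-LNC deletion clones are homozygous clones made with Cas9 and guide RNAs. Each deletion has 2 controls of its own, which are EA.hy926 cells given guide RNAs without Cas9 and taken through clonal selection. It is not given whether the 2 controls of a set are separate clones or separate cultures, so that the spread between them may be technical. All 10 libraries are of total RNA depleted of rRNA, from cells kept in the same medium. The transcripts of the deleted loci were not analysed here.

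The depth recovered from the table was 6743972 to 24197620 reads per library, with VEGFC-LNC deletion clone 3 the shallowest. Levels are given in FPKM, the number of reads scaled by transcript length and library depth, which is a level per length and can be compared between genes. The control pairs lay close together, with a median SD of log2 values over genes of 0.0650 and 0.0639, against 0.287 and 0.249 among the VEGFA-LNC and the VEGFC-LNC clones. VEGFA-LNC deletion clone 1 stood apart from the others. Without it, the number of differentially expressed genes (DEGs) after VEGFA-LNC deletion was 1732 in place of 367. For *MMP1*, *MMP2*, *MMP10*, *MMP14*, *TIMP1* and *TIMP3*, values without it are also given below, for *TIMP3* only in the VEGFC-LNC comparison.

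MMPs are zinc-dependent endopeptidases that cleave collagens, laminins and other proteins of the extracellular matrix. Most are made as inactive precursors that are activated by removal of a propeptide, and TIMPs bind the active enzymes and block them. Endothelial cells use them to open the basement membrane when vessels sprout, and the balance of MMPs to TIMPs is a usual summary of that capacity. RNA levels do not report the activity of the enzymes.

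*MMP1*, the interstitial collagenase, was the most abundant of the 9 transcripts in each library, and *MMP7* and *MMP19* were close to the limit of detection. In the VEGFA-LNC controls the order of mean FPKM was *MMP1* at 880.1, *TIMP1* at 184, *MMP2* at 105, *TIMP3* at 82.0, *MMP14* at 74.3, *TIMP2* at 73.3, *MMP10* at 3.19, *MMP7* at 0.509 and *MMP19* at 0.494. Neighbours in this order did not overlap, except for *MMP14* with *TIMP2* and *MMP7* with *MMP19*. In the VEGFA-LNC clones the ranges of 6 neighbouring pairs overlapped, and only *MMP1* over *TIMP1* and *MMP7* over *MMP19* were apart. The order of means in the VEGFC-LNC controls was *MMP1*, *TIMP1*, *MMP14*, *MMP2*, *TIMP2*, *TIMP3*, *MMP10*, *MMP19* and *MMP7*, from 515 to 0.0370 FPKM. The ranges of *TIMP2* and *TIMP3* overlapped there, as did those of *MMP19* and *MMP7*. The VEGFC-LNC clones kept that order, from 449 to 0.0443 FPKM, with overlap between *TIMP1* and *MMP14*, *MMP14* and *MMP2*, *TIMP3* and *MMP10*, and *MMP19* and *MMP7*. *MMP1* made up 48.4% to 87.3% of the summed FPKM of the 6 MMPs, lowest in VEGFC-LNC deletion clone 3. In these bulk samples, fewer cells that make a transcript and less of it in each cell cannot be told apart.

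**Figure D1:**
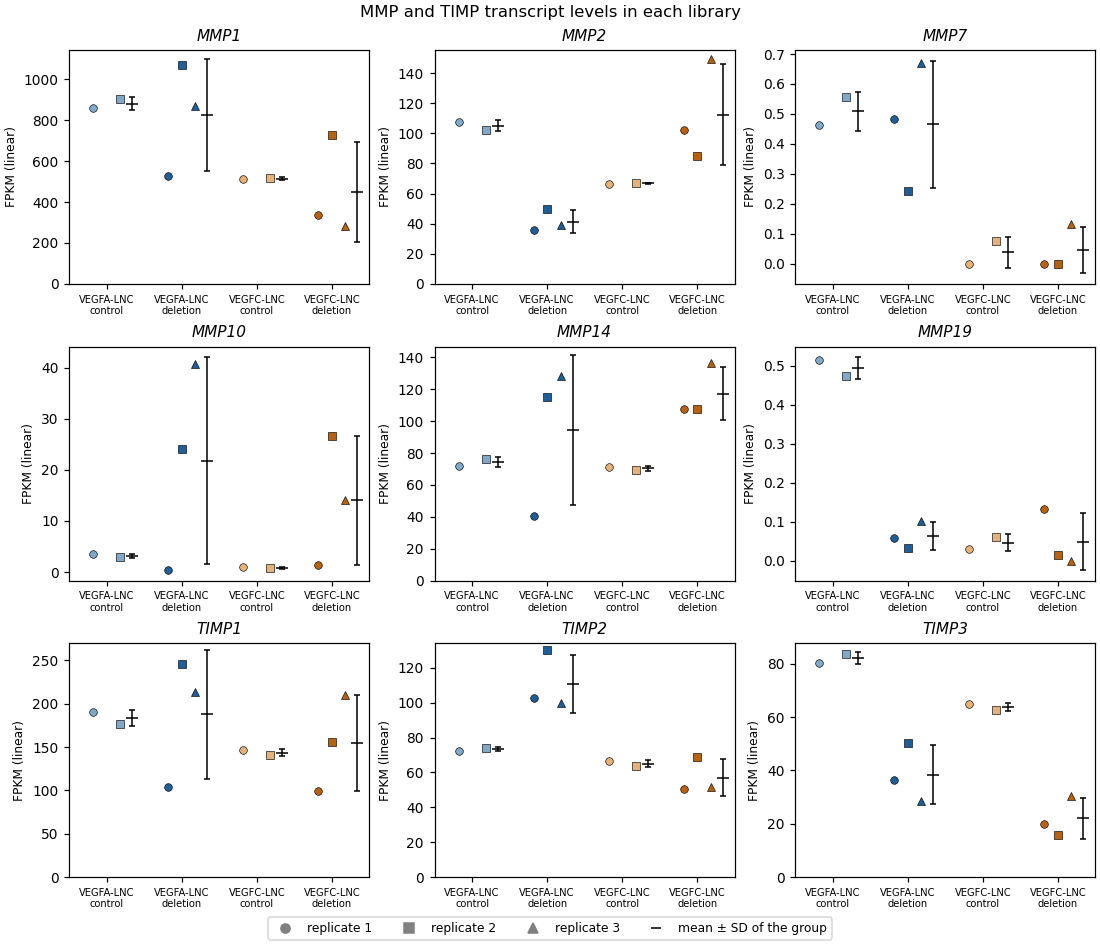
FPKM of each MMP and TIMP gene on linear axes in the 10 libraries, grouped as VEGFA-LNC controls, VEGFA-LNC deletion clones, VEGFC-LNC controls and VEGFC-LNC deletion clones, with marker shapes for replicates and bars for mean ± SD (n = 2 controls or 3 clones). The *MMP2* panel shows clones at 35.6 to 49.8 FPKM below their controls after VEGFA-LNC deletion and at 84.8 to 149.6 FPKM above theirs after VEGFC-LNC deletion, and the *TIMP3* panel shows all 6 clones below their controls.

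The question of the main comparisons was whether deletion of either lncRNA changed genes elsewhere in the genome. Genes were called DEGs at a limma FDR below 0.05 with a 1.5-fold or larger difference on the log2(FPKM + 0.1) scale, and 13333 genes passed the filter on low values. FC stands for fold change. Of the 9 genes, 8 passed it and *MMP7* did not. *MMP19* passed it only through the 2 VEGFA-LNC controls, in which it was highest, so that its difference from them follows in part from the filter. After VEGFA-LNC deletion 2 of the 8 tested genes were DEGs, *MMP2* and *MMP19*, both lower, against 2.75% of all tested genes. Clones and controls did not overlap in FPKM for 4 of the 8, *MMP2*, *MMP19*, *TIMP2* and *TIMP3*, against 39.0% of all genes. After VEGFC-LNC deletion 0 of the 8 were DEGs by limma, against 0.473% of all genes, and limma-voom on reads recovered from the FPKM values also called 0. In that comparison 2 of the 8, *MMP2* and *TIMP3*, had an unadjusted p under 0.05, against 18.8% of all genes. Clones and controls did not overlap for 4 of the 8, *MMP2*, *MMP10*, *MMP14* and *TIMP3*, against 47.8% of all genes. The median log2 FC over the 8 genes was −0.11 after VEGFA-LNC deletion and −0.01 after VEGFC-LNC deletion, beside −0.06 and −0.09 over all tested genes.

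*MMP2* encodes gelatinase A, which degrades type IV collagen and denatured collagens. The transcript NM_001302510 lies on chr16:55513910-55540603 of hg19, plus strand. It was measured at 107 and 102 FPKM in the VEGFA-LNC controls and at 35.6, 49.8 and 38.8 FPKM in the 3 VEGFA-LNC clones. All 3 clones were thus below both controls. The VEGFC-LNC controls had 66.6 and 66.8 FPKM, and the VEGFC-LNC clones had 102, 84.8 and 149.6 FPKM. Here all 3 clones were above both controls.

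After VEGFA-LNC deletion *MMP2* decreased 2.55-fold (log2 FC −1.35, SE 0.23, FDR 0.0253 in limma). This call was lost without VEGFA-LNC deletion clone 3 (FDR 0.0711), without VEGFA-LNC control 1 or 2 (0.24 and 0.255), and without VEGFC-LNC control 1 or 2 (0.0632 and 0.0634), while the log2 FC stayed between −1.39 and −1.31. It was also lost against all 4 controls (log2 FC −1.03, FDR 0.159), with only the groups compared (FDR 0.0809), with the replicate block (0.0513) and with each control pair as 1 sample (0.584). Without VEGFA-LNC deletion clone 1 the log2 FC of *MMP2* after VEGFA-LNC deletion was −1.25. After VEGFC-LNC deletion the log2 FC of *MMP2* was 0.71 (SE 0.23, 95% interval 0.18 to 1.24, FDR 0.182), which is not a DEG. Against all 4 controls it was 0.38, and the VEGFC-LNC clones lay on both sides of the VEGFA-LNC controls. The effects of the deletions on *MMP2* differed by −2.06 on the log2 scale (SE 0.33, FDR 0.0256 for the difference in limma), and 1.46% of all tested genes passed this test. *MMP2* was the only 1 of the 8 tested genes that did. With the replicate number as a block, which pairs same-numbered clones of the deletions, the difference was again −2.06 with an FDR of 0.0516. It missed the FDR also without VEGFA-LNC deletion clone 3 (0.0591) and without each of the 4 controls in turn (0.145 to 0.161). The control sets themselves differed in *MMP2* by −0.65 on the log2 scale (SE 0.26, FDR 0.122, with the spread shared by all groups, clones included).

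The 5 *MMP2* transcripts in the table had mean levels of 72.7 to 80.4 FPKM, so that the choice of transcript had little weight. Around *MMP2*, the 46 tested genes that start within 5 Mb had a median log2 FC of −0.35 after VEGFC-LNC deletion, with 38 of them lower, whereas *MMP2* was higher in each clone. After VEGFA-LNC deletion the median of these neighbours was −0.14.

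*MMP14* encodes MT1-MMP, a membrane-anchored collagenase that activates the precursor of gelatinase A in a complex with TIMP2. The transcript NM_004995 lies on chr14:23305742-23316808 of hg19. *MMP14* was measured at 72.0 and 76.5 FPKM in the VEGFA-LNC controls and at 40.3, 115 and 128 FPKM in the VEGFA-LNC clones. Clone 1 was below both controls, and clones 2 and 3 were above them. In the VEGFC-LNC set the controls had 71.5 and 69.1 FPKM and the clones 107.6, 107.6 and 136 FPKM, with every clone above both controls. The log2 FC was 0.18 (SE 0.42, 95% interval −0.78 to 1.14, FDR 0.853) after VEGFA-LNC deletion and 0.73 (SE 0.42, 95% interval −0.23 to 1.68, FDR 0.364) after VEGFC-LNC deletion. Without VEGFA-LNC deletion clone 1 the same fit called *MMP14* a DEG in both comparisons, with a log2 FC of 0.71 (FDR 0.0190) and 0.73 (FDR 0.0182). Without clone 2 or clone 3 of the VEGFA-LNC deletion its log2 FC there turned negative, to −0.05 and −0.12.

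*MMP1* (NM_002421, chr11:102660641-102668966, hg19, minus strand) was measured at 858 and 902 FPKM in the VEGFA-LNC controls. The VEGFA-LNC clones had 529, 1072 and 871 FPKM, on both sides of the controls. The VEGFC-LNC controls had 510.4 and 519 FPKM and the clones 339, 727 and 282 FPKM. Clone 2 was above these controls and clones 1 and 3 were below them. The log2 FC was −0.15 (95% interval −1.09 to 0.78, FDR 0.872) and −0.32 (95% interval −1.26 to 0.61, FDR 0.679). Without VEGFA-LNC deletion clone 1 the first value was 0.14.

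*MMP10* encodes stromelysin 2, which cleaves proteoglycans and laminin and can activate other MMP precursors. It lies beside *MMP1* in a cluster of MMP genes, at chr11:102641233-102651359 of hg19 (NM_002425, minus strand). Among the VEGFA-LNC clones it was the most variable of the 9. Among the VEGFC-LNC clones *MMP7* and *MMP19*, which had few reads, had larger coefficients of variation than *MMP10*. The VEGFA-LNC controls had 3.49 and 2.89 FPKM, and the VEGFA-LNC clones had 0.423, 24.1 and 40.7 FPKM, a 96.3-fold range. Clone 1 lay below the controls and the others far above. For the other deletion, controls had 0.904 and 0.733 FPKM and clones 1.38, 26.7 and 14.0 FPKM, a 19.3-fold range with all 3 above the controls. In reads, the lowest clone value rested on 11 reads and the highest on 1237. In the fits the log2 FC was 1.29 (SE 1.78, FDR 0.743) and 3.17 (SE 1.78, 95% interval −0.87 to 7.21, FDR 0.352), and neither passed the test. Without VEGFA-LNC deletion clone 1 the first value was 3.26 (FDR 0.0805), and without clone 2 or 3 it was 0.50 and 0.12. The second ran from 2.32 without VEGFC-LNC deletion clone 2 to 4.41 without its clone 1, and 1 library left out gave an FDR under 0.05 for neither. In both deletions clone 1 was the lowest of the 3, and clone 1 of each deletion also deviated from its group mean together with the other over all genes (r 0.553).

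*MMP7*, which encodes matrilysin, lies in the same cluster (NM_002423, chr11:102391239-102401484, hg19) and was near the limit of detection. It had 9 and 14 reads in the VEGFA-LNC controls and 8, 5 and 13 reads in the VEGFA-LNC clones, or 0.243 to 0.669 FPKM over these 5 libraries. In the VEGFC-LNC set it had 0 and 2 reads in the controls and 0, 0 and 1 read in the clones. For the libraries with 0 reads, a count of 0 allows up to 0.283 FPKM in the control and 0.12 and 0.145 FPKM in the clones. The values of all 5 libraries of the VEGFA-LNC set were thus above those of the VEGFC-LNC set, in controls and clones alike, but the lowest of them lies under the limit that 0 reads allow in the shallow control.

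The promoter sequences of *MMP10* and *MMP7* are shown because these genes of the same cluster on chromosome 11 share motifs at nearly the same places but differed in mean level. They come from RefSeq on GRCh38.p14 and run 5′ to 3′ over the 250 bases before the gene's start, and the promoters of *MMP14*, *TIMP1* and *TIMP3* were also found, 5 of the 9 genes. Capitals mark exact matches to TGANTCA (the AP-1 motif), TATAAA (the TATA box) or GGGCGG (the GC box), on either strand, searched in windows of 300 bases. The motifs do not overlap here. The windows are chr11:102780629-102780878 for *MMP10* and chr11:102530748-102530997 for *MMP7*, both on the minus strand.
MMP10: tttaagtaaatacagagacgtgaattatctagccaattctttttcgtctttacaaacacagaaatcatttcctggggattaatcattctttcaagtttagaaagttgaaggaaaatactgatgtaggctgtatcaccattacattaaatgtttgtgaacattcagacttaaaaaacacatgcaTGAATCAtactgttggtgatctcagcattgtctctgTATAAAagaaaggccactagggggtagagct
MMP7: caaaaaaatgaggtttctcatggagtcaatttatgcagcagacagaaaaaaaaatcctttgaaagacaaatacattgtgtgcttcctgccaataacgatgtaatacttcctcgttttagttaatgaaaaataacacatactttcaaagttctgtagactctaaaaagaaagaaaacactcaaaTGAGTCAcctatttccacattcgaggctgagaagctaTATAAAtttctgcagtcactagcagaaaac
In both, the AP-1 match begins 67 bases before the start. The TATA match begins 31 bases before it in *MMP10* and 30 bases before it in *MMP7*. Of 35116 promoters of the same length, 7.71% hold the AP-1 motif, 11.5% the TATA motif and 45.0% the GC box. The promoters of *MMP14*, *TIMP1* and *TIMP3* held neither of the first 2 motifs and had 1, 2 and 5 GC box matches. These matches are a description of letters.

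*MMP19* (NR_073606, chr12:56229214-56236767, hg19, minus strand) was low in every library. It had 0.514 and 0.475 FPKM (30 and 36 reads) in the VEGFA-LNC controls and 0.060, 0.032 and 0.103 FPKM (3, 2 and 6 reads) in the VEGFA-LNC clones. The VEGFC-LNC controls had 0.031 and 0.062 FPKM (1 and 5 reads), and the clones 0.133, 0.016 and 0 FPKM (10, 1 and 0 reads), where a count of 0 allows up to 0.133 FPKM. The VEGFA-LNC controls were therefore the only libraries above 0.2 FPKM. The log2 FC after VEGFA-LNC deletion was −1.87 (SE 0.40, FDR 0.0487), and the VEGFC-LNC controls differed from the VEGFA-LNC controls by −2.03 (SE 0.44, FDR 0.0230). After VEGFC-LNC deletion it was −0.06 (FDR 0.942). Against all 4 controls the first value fell to −0.86 (FDR 0.557), and it was still a DEG in 6 of 21 alternatives. Leaving out 1 library raised its FDR to between 0.0506 and 0.362 for VEGFA-LNC deletion clone 2 or 3, for VEGFC-LNC deletion clone 2 or 3 and for each control. *MMP19* overlaps *TMEM198B* on the opposite strand, which had a mean of 1.31 FPKM, and reads of the pair cannot be told apart without the strand setting of the counting. The 133 tested genes within 5 Mb had a median log2 FC of 0.01 after VEGFA-LNC deletion and −0.41 after VEGFC-LNC deletion.

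*TIMP3* encodes the inhibitor that binds to the extracellular matrix, acts also on ADAM and ADAMTS proteases, and is known to block binding of VEGF to its receptor VEGFR2. The transcript NM_000362 lies on chr22:33196802-33259028 of hg19. It was measured at 80.5 and 83.6 FPKM in the VEGFA-LNC controls and at 36.6, 50.3 and 28.6 FPKM in the clones. The VEGFC-LNC controls had 65.0 and 62.8 FPKM, and the clones 19.8, 15.8 and 30.5 FPKM. In both sets every clone was below both controls, and *TIMP3* was the only tested member of which this held, 1 of 8 against 5.78% of all tested genes. It had 1126 to 10341 reads per library. The log2 FC was −1.13 (SE 0.29, 95% interval −1.79 to −0.47, FDR 0.0771) after VEGFA-LNC deletion and −1.58 (SE 0.29, 95% interval −2.24 to −0.93, FDR 0.0580) after VEGFC-LNC deletion. Neither passed the FDR. The second passed it against all 4 controls (log2 FC −1.76, FDR 0.0188) and without VEGFA-LNC deletion clone 1 (FDR 0.0192), VEGFA-LNC deletion clone 2 (0.0474) or VEGFC-LNC deletion clone 3 (0.0410). With 1 library left out the log2 FC of *TIMP3* after VEGFA-LNC deletion ran from −1.34 to −0.93. The effects of the deletions on *TIMP3* differed by 0.46 (SE 0.41, 95% interval −0.47 to 1.39, FDR 0.586). The 88 tested genes within 5 Mb had medians of −0.08 and 0.03.

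The promoter of *TIMP3* is shown since this was the member below its controls in all 6 clones. The capitals mark the GC box on either strand, 5 times in 250 bases, and 72.4% of the bases are G or C. It lies on chr22:32801455-32801704 of GRCh38.p14, plus strand, and comes from RefSeq.
TIMP3: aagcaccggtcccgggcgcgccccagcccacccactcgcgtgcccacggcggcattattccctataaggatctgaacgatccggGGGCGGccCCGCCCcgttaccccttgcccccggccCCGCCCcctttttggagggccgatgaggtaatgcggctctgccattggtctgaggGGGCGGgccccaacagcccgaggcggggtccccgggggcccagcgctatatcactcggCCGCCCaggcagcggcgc

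*TIMP2*, the inhibitor that takes part in activation of gelatinase A by MT1-MMP, was measured at 72.5 and 74.1 FPKM in the VEGFA-LNC controls and at 102.6, 129.9 and 99.7 FPKM in the VEGFA-LNC clones (NM_003255, chr17:76849059-76921472, hg19). Every clone was above both controls. The VEGFC-LNC controls had 66.5 and 63.7 FPKM and the clones 50.5, 69.1 and 51.5 FPKM, on both sides of the controls. The fitted log2 FC was 0.58 (SE 0.17, 95% interval 0.19 to 0.98, FDR 0.113) and −0.21 (SE 0.17, 95% interval −0.60 to 0.19, FDR 0.525). The difference between these effects was 0.79 (SE 0.25, FDR 0.147).

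*TIMP1*, a secreted inhibitor of most MMPs, did not change in level in a direction shared by the clones (NM_003254, chrX:47441690-47446190, hg19). The VEGFA-LNC controls had 191 and 177 FPKM and the clones 104, 245 and 213 FPKM. In the VEGFC-LNC set, controls had 146 and 141 FPKM and clones 99.6, 155 and 209.7 FPKM. In each set clone 1 was below both controls and clones 2 and 3 were above both. The log2 FC was −0.06 (95% interval −0.94 to 0.82, FDR 0.949) and 0.05 (95% interval −0.84 to 0.93, FDR 0.957). Both values changed sign with the libraries used, the first to 0.32 without VEGFA-LNC deletion clone 1 and the second to −0.21 without VEGFC-LNC deletion clone 3.

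**Figure D2:**
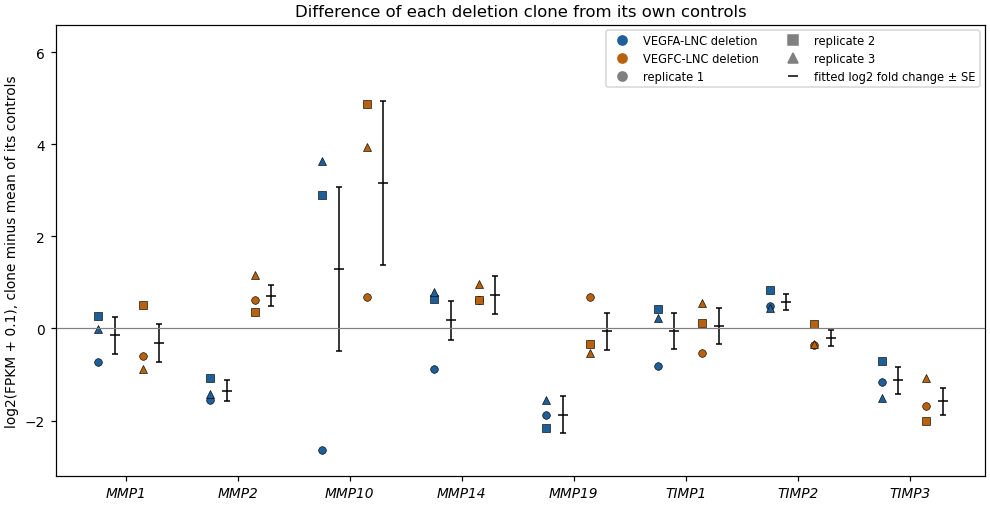
Each deletion clone's log2(FPKM + 0.1) minus the mean of its own 2 controls, for the 8 tested genes, with marker shapes for replicates and bars for the fitted log2 FC ± SE. The *MMP2* clones lie at −1.55 to −1.07 after VEGFA-LNC deletion and at 0.35 to 1.16 after VEGFC-LNC deletion, the *TIMP3* clones lie below 0 in both, and *MMP10* spans −2.65 to 4.87.

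Clones of the same deletion therefore differed more in some members than in others. VEGFA-LNC deletion clone 1 had the lowest level of its group in 5 of the 9 genes, *MMP1*, *MMP2*, *MMP10*, *MMP14* and *TIMP1*, and the highest in 0. VEGFC-LNC deletion clone 1 was lowest in 4, *MMP10*, *MMP14*, *TIMP1* and *TIMP2*, and highest in *MMP19*. VEGFA-LNC deletion clone 2 was highest in 5, *MMP1*, *MMP2*, *TIMP1*, *TIMP2* and *TIMP3*. VEGFC-LNC deletion clone 3 was highest in 5, *MMP2*, *MMP7*, *MMP14*, *TIMP1* and *TIMP3*. The shares over all genes were not computed for these counts. The coefficient of variation among the 3 clones ran from 15.1% for *TIMP2* to 93.1% for *MMP10* in the VEGFA-LNC set, whereas that of the VEGFA-LNC controls ran from 1.63% for *TIMP2* to 13.3% for *MMP10*.

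The control sets were compared with each other because each deletion is measured against only its own. All 8 tested genes were lower in both VEGFC-LNC controls than in both VEGFA-LNC controls, against 49.2% of all genes, while 82.9% did not overlap in either direction. *MMP19* was the only DEG of the 8, and 12.7% of all tested genes were DEGs. Since *MMP19* passed the filter only through the VEGFA-LNC controls, its lower level in the VEGFC-LNC controls follows in part from the filter. The median log2 difference was −0.51 over the 8 genes and −0.11 over all genes. For *MMP1* it was −0.77 (SE 0.45, FDR 0.278), for *MMP10* −1.84 (SE 1.95, FDR 0.554) and for *TIMP1*, *TIMP2* and *TIMP3* −0.36, −0.17 and −0.36. These SEs and FDRs use the spread shared by all groups, which was larger among clones than between controls. They do not measure the spread between controls alone, and a missed FDR here does not show equal levels. With only these groups compared more of the 8 genes were DEGs, and with control pairs as 1 sample fewer, as given below. Median-of-ratios scaling of the libraries raised each log2 difference of this comparison by 0.108, which left every direction as it was except that *MMP14* moved from −0.08 to 0.03.

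Ratios of MMP to TIMP levels within a library hardly depend on the scaling of that library. The ratio of *MMP2* to *TIMP2* was 1.48 and 1.38 in the VEGFA-LNC controls and 0.348, 0.383 and 0.39 in the VEGFA-LNC clones. It was thus 3.83-fold lower in the clones (log2 −1.42 ± 0.09 against 0.52 ± 0.07, SD, n = 3 and 2), and all clones were below both controls. In the VEGFC-LNC set it was 1.00 and 1.05 in the controls and 2.02, 1.23 and 2.90 in the clones, a 1.88-fold higher mean with all clones above. The ratio of *MMP14* to *TIMP3* was 0.895 and 0.916 in the VEGFA-LNC controls and 1.10, 2.28 and 4.47 in the clones. In the VEGFC-LNC set it was 1.10 in both controls and 5.40, 6.76 and 4.47 in the clones, 4.97-fold higher (log2 2.45 ± 0.30, SD, n = 3). Clones and controls did not overlap in either set. The ratio of *MMP14* to *TIMP2* was above the VEGFC-LNC controls (1.07 and 1.08) in the 3 clones (2.13, 1.56 and 2.65), and the clones lay on both sides of the VEGFA-LNC controls.

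An exact permutation over the 5 libraries of a set, two-sided, cannot give a p below 0.1. This smallest value, 0.1, was reached for *MMP2* to *TIMP2* after VEGFA-LNC deletion and for *MMP14* to *TIMP3* after VEGFC-LNC deletion. For *MMP2* to *TIMP2* after VEGFC-LNC deletion and *MMP14* to *TIMP3* after VEGFA-LNC deletion the exact p was 0.2. The Benjamini-Hochberg value over the 16 ratio tests was 0.457 for these 4, so that none passed, and 0.457 was also the lowest of the 16. *MMP1* to *TIMP1* was 4.50 and 5.09 in the VEGFA-LNC controls and 5.08, 4.37 and 4.08 in the clones. It was 3.49 and 3.69 in the VEGFC-LNC controls and 3.40, 4.68 and 1.34 in the clones. The sum of the 6 MMPs over the sum of the 3 TIMPs was 2.49 to 3.24 in the VEGFA-LNC set and 1.99 to 3.93 in the VEGFC-LNC set (exact p of 0.4 and 0.5). VEGFA-LNC clones 1 and 2 (2.49 and 2.96) were below both controls, and clone 3 (3.16) was between them (3.03 and 3.24). The VEGFC-LNC clones lay on both sides of their controls. *MMP10* to *TIMP1* spanned 0.00502 to 0.191 over the 10 libraries, and after VEGFC-LNC deletion its clones (0.0148, 0.172 and 0.0672) were above the controls (0.00686 and 0.00591; exact p of 0.2).

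Most of the wider family was near or under detection. Of 18 other MMPs and *TIMP4*, 5 passed the filter (*MMP11*, *MMP15*, *MMP16*, *MMP17* and *MMP24*) and 13 stayed under 1 FPKM in every library, at most 0.485 FPKM. The most abundant, *MMP16* and *MMP24*, encode membrane-type MMPs. *MMP16* had means of 4.95 and 3.55 FPKM in VEGFA-LNC controls and clones and 7.16 and 3.48 FPKM in VEGFC-LNC controls and clones. *MMP24* had 3.27, 4.84, 1.36 and 2.82 FPKM in the same order. None of the 5 was a DEG after either deletion, against 2.75% and 0.473% of all tested genes. *MMP15* was the only 1 called between the control sets, at 2.03 and 0.867 FPKM (log2 −1.14, SE 0.21, FDR 0.0139).

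The plasminogen system acts upstream of several MMPs. Plasmin, made from plasminogen by the activators encoded by *PLAT* and *PLAU*, activates several MMP precursors, and serpins inhibit these activators. Of 10 genes in the list 8 were tested, and 2 were lower DEGs and 0 higher DEGs after VEGFA-LNC deletion, while 0 were DEGs by limma after VEGFC-LNC deletion. Over all tested genes 2.75% and 0.473% were DEGs. The medians of the list were −0.35 and −0.60, beside −0.06 and −0.09 over all genes. *SERPINE2*, encoding protease nexin 1, decreased from 14.4 and 15.3 FPKM in the VEGFA-LNC controls to 1.02 to 2.12 FPKM in the clones (log2 FC −3.30, SE 0.48, FDR 0.0155). The VEGFC-LNC controls were at a mean of 1.14 FPKM, within the range of these clones, and against all 4 controls the log2 FC was −1.50 (FDR 0.516). *PLAT*, encoding tissue plasminogen activator, decreased from 735 and 771 FPKM to 85.3 to 174 FPKM (log2 FC −2.55, SE 0.41, FDR 0.0208). The VEGFC-LNC controls had a mean of 234 FPKM, between the VEGFA-LNC controls and clones, and against all 4 controls the log2 FC was −1.71 (FDR 0.219). *ANXA2*, also abundant, was not a DEG after either deletion, with group means of 668 to 933 FPKM.

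Of 28 ADAM and ADAMTS proteases, 14 were tested, with median log2 FCs of −0.08 after VEGFA-LNC deletion and 0.02 after VEGFC-LNC deletion. The medians over all tested genes were −0.06 and −0.09. There were 2 lower DEGs in the first comparison and 1 in the second, against 2.75% and 0.473% of all tested genes. *ADAMTS9*, a proteoglycan-cleaving protease, was lower after both deletions. It had 307 and 347 reads in the VEGFA-LNC controls (2.43 and 2.11 FPKM) and 1, 2 and 5 reads in the clones, and 179 and 447 reads in the VEGFC-LNC controls (2.59 and 2.54 FPKM) and 11, 0 and 3 reads in the clones. The log2 FC was −4.29 (SE 0.29, FDR 0.00160) and −4.26 (SE 0.29, FDR 0.000564), and their size depended on the pseudocount, with −1.68 and −1.77 at 1 in place of 0.1, −6.31 and −6.08 at 0.01, and −6.64 and −6.72 by limma-voom. *ADAMTS9* passed the filter on low values only through the 4 controls, so that it had to differ from them. *ADAMTS10* decreased from 0.752 and 0.881 FPKM to 0.339 to 0.349 FPKM after VEGFA-LNC deletion (log2 FC −1.04, SE 0.21, FDR 0.0413), and against all 4 controls it missed the FDR (log2 FC −1.34, FDR 0.0690). No member of this list was a DEG with a higher level. *ADAM10* and *ADAM15*, the most abundant, had group means of 37.6 to 49.2 and 76.0 to 126 FPKM and were not DEGs after either deletion.

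Of 14 activators and binding partners of MMPs 10 were tested. After VEGFA-LNC deletion 1 was a DEG and after VEGFC-LNC deletion 0, against 2.75% and 0.473% of all tested genes. *CD44*, the hyaluronan receptor that can hold MMPs at the cell surface, decreased from 321 and 330.1 FPKM to 129 to 175 FPKM (log2 FC −1.12, SE 0.16, FDR 0.0145). The VEGFC-LNC controls, at a mean of 98.6 FPKM, were below these clones, and against all 4 controls the log2 FC was −0.26 (FDR 0.824). *THBS1*, encoding thrombospondin 1, was at 479 and 505 FPKM in the VEGFA-LNC controls and at 177 to 289 FPKM in the clones, and at 189 and 194 FPKM in the VEGFC-LNC controls and at 379.7 to 646 FPKM in the clones. It was a DEG in neither (FDR 0.0840 and 0.0803), and its effects differed by −2.33 (SE 0.39, FDR 0.0276). *BSG*, the inducer of MMPs also called EMMPRIN, had group means of 211 to 328 FPKM and was not a DEG after either deletion. Of the 10, 3 were higher and 7 lower after VEGFA-LNC deletion and 9 higher and 1 lower after VEGFC-LNC deletion. The medians were −0.29 and 0.38, beside −0.06 and −0.09 over all genes.

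Among 15 AP-1, ETS and RUNX factors, which bind promoters of MMP genes, 1 was a DEG after VEGFA-LNC deletion and 0 after VEGFC-LNC deletion. The shares over all tested genes were 2.75% and 0.473%. The medians of the list were −0.07 and −0.18, beside −0.06 and −0.09 over all genes. *FOS*, an AP-1 subunit, decreased from 3.60 and 3.82 FPKM to 1.06 to 1.18 FPKM after VEGFA-LNC deletion (log2 FC −1.66, SE 0.30, FDR 0.0281). The mean of the VEGFC-LNC controls was 1.03 FPKM, and against all 4 controls the log2 FC was −0.78 (FDR 0.517). The more abundant AP-1 subunits *JUN* and *FOSL1* had group means of 61.5 to 95.8 and 46.2 to 85.1 FPKM and were not DEGs after either deletion.

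Of 17 matrix substrates 13 were tested. After VEGFA-LNC deletion 2 were DEGs, both lower, and after VEGFC-LNC deletion 1 was a DEG, higher. The shares over all tested genes were 2.75% and 0.473%. The list medians were −0.32 and 0.39, beside −0.06 and −0.09 over all genes. *COL5A1*, encoding a chain of type V collagen, decreased from 21.7 and 22.0 FPKM to 8.87 to 9.98 FPKM after VEGFA-LNC deletion (log2 FC −1.20, SE 0.19, FDR 0.0199). At a mean of 6.35 FPKM the VEGFC-LNC controls were below these clones, and against all 4 controls the log2 FC was −0.32 (FDR 0.785). *COL1A1*, encoding a chain of type I collagen, had 29 and 44 reads in the VEGFA-LNC controls and 4, 3 and 6 reads in the clones (log2 FC −1.50, SE 0.31, FDR 0.0422). It passed the filter only through these 2 controls, so that it had to differ from them, and the call was lost in 14 of 21 alternatives. *COL4A1*, encoding a chain of the type IV collagen of basement membranes, increased from 6.37 and 6.69 FPKM to 14.3 to 17.7 FPKM after VEGFC-LNC deletion (log2 FC 1.25, SE 0.16, FDR 0.0149). The laminin genes *LAMB1* and *LAMA4* were the most abundant and were not DEGs after either deletion.

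**Figure D3:**
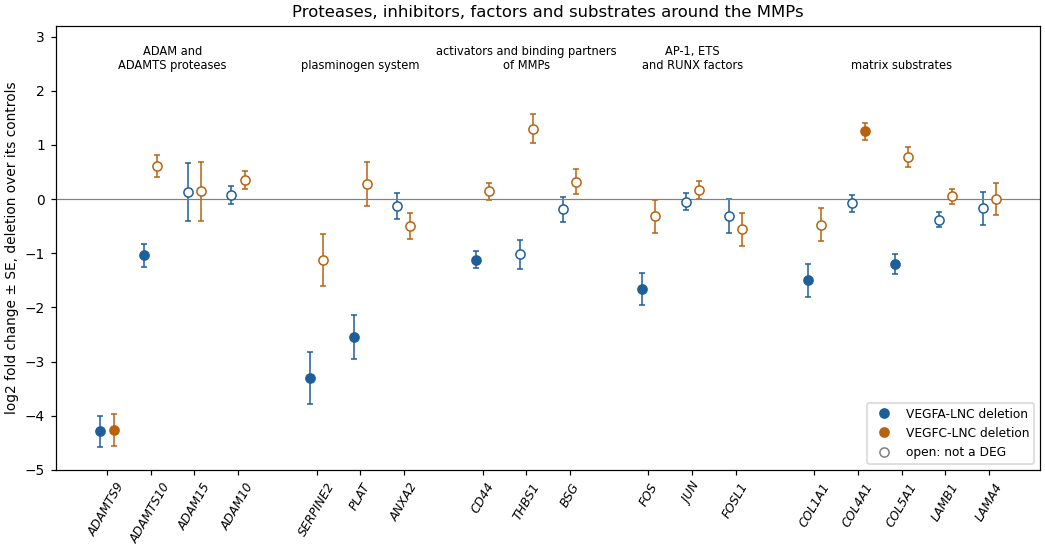
Log2 FC ± SE of named genes of 5 lists after VEGFA-LNC deletion and VEGFC-LNC deletion, each against its own controls, with filled points for DEGs and open points for other genes. *ADAMTS9* lies near −4.3 in both, and *PLAT* lies at −2.55 after VEGFA-LNC deletion.

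These calls rest on few control libraries, and *SERPINE2*, *PLAT*, *CD44*, *FOS*, *COL1A1* and *COL5A1*, all lower after VEGFA-LNC deletion, were also DEGs between the control sets, lower in the VEGFC-LNC controls (log2 differences of −3.60, −1.68, −1.72, −1.77, −1.34 and −1.77). Since *COL1A1* passed the filter only through the VEGFA-LNC controls, its lower level in the VEGFC-LNC controls follows in part from the filter. Over these lists, the family list and 4 lists of cell type markers, 32 calls were made in the 4 comparisons, and leaving out 1 control library lost 26 to 29 of them. The calls of *ADAMTS9* were lost only when each control pair was counted as 1 sample.

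The genes with the most similar profile over the 10 libraries, by the root mean square difference of log2 values centred on each gene, were *CFAP44* and *GMIP* for *MMP2* (0.244 and 0.275), *STPG1* and *SNAPC5* for *MMP1* (0.176 and 0.257) and *IFI27* and *ADAMTS7* for *MMP10* (0.897 and 1.01). For *MMP14* they were *RHPN1* and *SOX4* (0.136 and 0.149) and for *MMP19* *KBTBD8* and *SNHG12* (0.213 and 0.266). The nearest to the inhibitors were *CACNB3* and *ZNF251* for *TIMP1* (0.114 and 0.134), *ZNRF1* and *DGAT2* for *TIMP2* (0.128 and 0.144) and *RDH12* and *SLC16A7* for *TIMP3* (0.301 and 0.351). For comparison, the root mean square of each member's own profile was 0.411 for *TIMP1*, 0.643 for *MMP2*, 0.796 for *TIMP3* and 2.21 for *MMP10*. The profiles share their libraries, and the nearest were searched among all tested genes.

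The label of the cells was checked against markers. Of 10 endothelial markers, 7 had at least 1 FPKM in every library of each group, or 8 in the VEGFC-LNC controls, among them *CDH5* and *EGFL7*, and *CLDN5* had no reads. *KDR*, which encodes VEGFR2, was at 0.036 to 1.39 FPKM over the 10 libraries, and *VWF* was at 0.65 to 8.78 FPKM. The summed FPKM of the 10 markers was 369 to 384 in the VEGFA-LNC controls, 285 to 961 in the VEGFA-LNC clones, 544 to 556 in the VEGFC-LNC controls and 478 to 794 in the VEGFC-LNC clones. The 8 epithelial markers, led by *KRT7* and *KRT18*, summed to 1080 to 1090 FPKM in the VEGFA-LNC controls, 487 to 1310 in the VEGFA-LNC clones, 898 to 911 in the VEGFC-LNC controls and 439 to 866 in the VEGFC-LNC clones, so that all VEGFC-LNC clones were below their controls. *KRT18* was at 101 to 189 FPKM in these clones and at 333 and 335 FPKM in their controls. *KRT7* was at 502, 242 and 412 FPKM in them, on both sides of the controls at 253 and 247 FPKM. Of the 8 epithelial markers, 3 had at least 1 FPKM in every library of each group, *KRT7*, *KRT8* and *KRT18*. *EPCAM*, *CDH1*, *KRT19*, *CLDN4* and *ESRP1* were at most 0.505 FPKM. VEGFA-LNC deletion clone 1 had the lowest *CDH5* of the 10 libraries, 56.6 FPKM, and the highest *KRT18*, 436 FPKM. Its *EGFL7*, at 109 FPKM, was however above both VEGFA-LNC controls, at 83.1 and 88.0 FPKM. The epithelial *CDH1* and *ESRP1* had no reads in the VEGFC-LNC set. The 5 fibroblast markers, *PDGFRA* and *PDGFRB* included, summed to at most 0.514 FPKM. The 5 leukocyte markers summed to 17.0 to 50.8 FPKM, nearly all of it *CD68*, and *PTPRC* and *CD3E* had no reads in the VEGFC-LNC set. The part of these marker levels in the results above was not tested.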

How the data were processed

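RNA-Seq libraries of 10 EA.hy926 samples (3 clones of each deletion, 2 controls each) were read from a single table of FPKM values per RefSeq transcript on hg19, deposited by the authors. Per the study's methods and the submitters' processing notes, reads were trimmed with Trim Galore 0.4.4 and aligned to GRCh37 with STAR 2.5.4b, and counted with featureCounts. How the FPKM table was made, and the strand setting of its counting, are not given in the sources used here. FPKM multiplied by length gave whole reads in each library (tolerance 0.15), which set the depth. Intervals and floors (3 reads) cover counting error or the fit only. Rows with no gene name (42 of 65572, 0.021% of summed FPKM) were left out.

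Groups followed the labels. Genes with FPKM times length in kilobases of at least 1 in at least 2 libraries were tested on log2(FPKM + 0.1) with limma 3.58.1 in R 4.3.3 (lmFit, eBayes with trend) in a 4-group design with 6 residual degrees of freedom, and FDRs follow Benjamini and Hochberg over all tested genes. The log2(FPKM + 0.1) scale understates changes of low genes. The thresholds for a DEG were 0.05 on the FDR and 1.5 on the FC. The study's own test needs counts, so limma was used, and limma-voom on recovered reads was an alternative. Scripts were tested on simulated data. Ratios were compared by exact permutation with scipy 1.17.1 in Python 3.11.15. The control pairs differed by more than the counting noise of independent reads (chi-square per degree of freedom 3.76 and 1.54, against 18.3 to 138 between clones), so that neither is the same set of reads deposited again. This does not show separate libraries or separate cultures. They were counted as 2 samples, as labelled, and as 1 in an alternative. Same-numbered clones of the deletions deviated from their group means together (r 0.553, 0.409 and 0.219 over genes). So did VEGFA-LNC clone 2 with VEGFC-LNC clone 3 (r 0.263) and VEGFA-LNC clone 3 with VEGFC-LNC clone 2 (r 0.183). These values therefore do not show pairing by number for clones 2 and 3. The replicate block pairs same-numbered clones in the test of the difference between effects. Clones and their own controls share only numbers.

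The genes and lists were chosen with earlier results of these data known, and 1 gene of the plasminogen list is not reported here. By rule, all members were named, and from each list the DEGs of a deletion (at most 6) and the 2 most abundant genes. *MMP11*, *MMP15* and *MMP17* were named after their values were seen. The nearest 2 profiles per tested member and the median of tested genes within 5 Mb were also given. Alternatives were another pseudocount, filter, scaling, test, transcript or set of controls, the replicate block, and each library left out.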

Additional observations from a re-analysis of the deposited data

Results flagged for a closer look

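The effects of the deletions on *MMP2* differed, with a log2 FC after VEGFA-LNC deletion minus that after VEGFC-LNC deletion of −2.06. All 3 VEGFA-LNC clones were below their controls and all 3 VEGFC-LNC clones above theirs. The same test of the difference passed an FDR of 0.05 in limma for 5 other genes named above. These were *THBS1* with −2.33, *COL5A1* with −1.99, *ADAMTS10* with −1.65, *COL4A1* with −1.33 and *CD44* with −1.25. With the replicate number as a block, *THBS1* and *COL5A1* stayed past the FDR, while the FDR was 0.0516 for *MMP2*, 0.0744 for *ADAMTS10*, 0.0591 for *CD44* and 0.0596 for *COL4A1*. The controls enter this difference from both sets, and *MMP2* was 105 ± 3.65 FPKM in the VEGFA-LNC controls and 66.7 ± 0.188 FPKM in the VEGFC-LNC controls (SD, n = 2). The cause was not tested.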

How the results depend on the processing

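Over the tested MMP and TIMP genes, 609 of 676 values under an alternative kept direction and side of the threshold, 38 lost a call, 9 gained one and 20 changed sign. The direction of *MMP2* and *TIMP3* held under every alternative run in both deletions. DEGs after VEGFA-LNC deletion numbered 654 with no low-value filter, 551 by limma-voom, 20 with only the groups compared, 29 against all 4 controls, 151 with the replicate block and 0 with each control pair as 1 sample (834 genes with an unadjusted p under 0.05), and 6 to 1732 with 1 library left out. After VEGFC-LNC deletion they numbered 26 with only the groups compared, 20 with the replicate block, 1 with control pairs as 1 sample, and 5 to 1158 with 1 library left out. Between control sets they numbered 4401 with only these groups, 0 with control pairs as 1 sample (1224 at an unadjusted p under 0.05) and 33 to 3068. The difference between effects was called for 329 genes with no filter, 86 with the block, 0 with control pairs as 1 sample (689 unadjusted) and 5 to 694. The highest of each range came without VEGFA-LNC deletion clone 1.

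Of the 8 tested genes, those called after VEGFA-LNC deletion fell from 2 to 1 with a pseudocount of 1 or 0.01, a filter at 1 FPKM or median-of-ratios scaling, to 0 with only the groups compared, all 4 controls, control pairs as 1 sample or the replicate block, and ran from 0 to 3 with 1 library left out, 3 being without VEGFA-LNC deletion clone 1. After VEGFC-LNC deletion 1 was called against all 4 controls and 0 to 2 with 1 library left out. Between control sets 0 were called with either pseudocount, the 1 FPKM filter or control pairs as 1 sample, 2 with no filter, 4 with only these groups and 0 to 1 with 1 library left out. For the difference between effects 0 were called with the block or control pairs as 1 sample and 0 to 1 with 1 library left out. The FDR of *MMP2* after VEGFA-LNC deletion was 0.0513 with the block. Clones and their own controls share only a number there (r −0.043 to 0.047).

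Signs changed for *MMP1* (0.23) and *TIMP1* (0.12) after VEGFA-LNC deletion and for *TIMP1* after VEGFC-LNC deletion (−0.13) against all 4 controls, for *MMP14* after VEGFA-LNC deletion (−0.030) and *TIMP1* after VEGFC-LNC deletion (−0.15) with the block, for *MMP14* between control sets with median-of-ratios scaling (0.029) and for *MMP19* after VEGFC-LNC deletion with a pseudocount of 1 (0.0023). With 1 library left out, the log2 FC after VEGFA-LNC deletion ran from −0.37 to 0.14 for *MMP1*, −0.12 to 0.71 for *MMP14* and −0.30 to 0.32 for *TIMP1*, and after VEGFC-LNC deletion from −0.44 to 0.17 for *MMP19* and −0.21 to 0.33 for *TIMP1*. The difference between effects ran from −0.10 to 0.58 for *MMP1*, −3.12 to 0.093 for *MMP10* and −0.39 to 0.27 for *TIMP1*. The ratio of *MMP19* to *TIMP1* after VEGFA-LNC deletion moved to −0.43 with a pseudocount of 1, and that of *MMP7* to *TIMP1* after VEGFC-LNC deletion ran from −0.47 to 0.39. With only the groups compared there is no value for the difference between effects, and against all 4 controls none for it or the control sets. The cause of these changes was not tested. Depth limits *MMP7* and *MMP19*, at 36 reads or fewer per library.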
